A study of Mus musculus with 6 samples.

Results

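A set of 10 genes of the neutrophil's granules and cytosol were followed across all 6 arrays of a mouse study of hematopoietic stem cells (HSC). They were taken by name and matched 10 of the 28815 probe sets, 1 probe set each, and none shared its probe set with another gene. All 10 were among the 17289 probe sets bright enough to be tested. The study set HSC of wild-type (WT) mice against HSC of mice without a working Selp gene (Selp-/-), which encodes the adhesion receptor P-selectin, to ask which genes P-selectin regulates there. Both genotypes were of the C57BL/6 strain, and each had 3 arrays, numbered 1, 2 and 3 in the labels. The age and treatment of the mice, the sort of the cells and the meaning of the numbers are not given in the sources used here. The labels do not say whether arrays of 1 genotype came from different animals, so every p-value below measures the spread between these samples only, which may be technical.

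Neutrophils fill their granules in a fixed order as they mature. Promyelocytes make the primary (azurophil) granules with myeloperoxidase and the serine proteases, under factors such as C/EBP alpha, PU.1 and RUNX1. Myelocytes and later cells make the specific and gelatinase granules with lactoferrin, cathelicidin and lipocalin, under C/EBP epsilon, and the S100 proteins accumulate in the cytosol. Stem cells are upstream of all of these, and primary granule transcripts are known to appear in early myeloid progenitors before any granule is seen.

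The members fell into 2 classes by that order. The primary class held Mpo, which makes hypochlorous acid, and the serine proteases Elane, Prtn3 and Ctsg. The later class held Ltf (lactoferrin, which binds iron), Camp (the cathelicidin precursor), Ngp (a granule protein related to cathelicidins), Lcn2 (which binds bacterial siderophores) and S100a8 and S100a9, the subunits of calprotectin. In RefSeq's mouse gene order Prtn3 and Elane had 0 coding genes between them, and so did S100a8 and S100a9. Camp, Ngp and Ltf all lie on chromosome 9, with 8 coding genes between Camp and Ngp and 20 between Ngp and Ltf.

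All 10 members had a promoter of 300 bases in RefSeq (GRCm38.p6), 250 before the start of the gene and 50 after it. Printed are those of the 3 members that passed the test between the arrays numbered 1 and 2 and that of Camp, which passed no test. Capitals mark matches on either strand to motifs named for C/EBP (TTGCNNAA), PU.1 (GAGGAA), RUNX (TGTGGT) and the TATA box (TATAAA).
Elane, chr10:79886062-79886361, + strand: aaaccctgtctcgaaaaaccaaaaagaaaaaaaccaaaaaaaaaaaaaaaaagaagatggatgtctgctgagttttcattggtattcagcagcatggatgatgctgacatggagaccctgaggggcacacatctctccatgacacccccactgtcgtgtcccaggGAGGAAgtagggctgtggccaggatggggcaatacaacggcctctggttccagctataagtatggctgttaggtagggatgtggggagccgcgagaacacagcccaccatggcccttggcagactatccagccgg
Ngp, chr9:110419558-110419857, + strand: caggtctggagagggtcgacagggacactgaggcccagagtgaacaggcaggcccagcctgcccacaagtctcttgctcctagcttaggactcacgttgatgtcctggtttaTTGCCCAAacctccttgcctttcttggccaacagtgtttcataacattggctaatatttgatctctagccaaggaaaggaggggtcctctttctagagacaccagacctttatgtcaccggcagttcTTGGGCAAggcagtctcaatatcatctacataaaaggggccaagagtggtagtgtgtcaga
Lcn2, chr2:32387690-32387989, - strand: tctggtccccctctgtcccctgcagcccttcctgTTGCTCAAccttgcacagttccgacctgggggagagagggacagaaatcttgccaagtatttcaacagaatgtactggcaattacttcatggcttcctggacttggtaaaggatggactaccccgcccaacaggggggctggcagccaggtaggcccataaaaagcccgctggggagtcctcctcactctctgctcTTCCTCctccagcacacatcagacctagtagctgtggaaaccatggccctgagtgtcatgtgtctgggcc
Camp, chr9:109849407-109849706, - strand: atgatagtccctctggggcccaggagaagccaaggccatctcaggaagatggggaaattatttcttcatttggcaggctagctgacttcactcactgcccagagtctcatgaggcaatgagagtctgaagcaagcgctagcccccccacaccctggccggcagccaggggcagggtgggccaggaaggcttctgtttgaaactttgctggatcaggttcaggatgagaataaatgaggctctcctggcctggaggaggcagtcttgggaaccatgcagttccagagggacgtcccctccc
The C/EBP letters were found in the windows of 4 members, Ltf, Ngp, Lcn2 and S100a9, all of the later class, against 10.8% of the 32851 promoters of that length. Ngp held them at 2 places, positions -138 and -11 from the start. The PU.1 letters were found in 7 of 10, all 4 primary genes and Lcn2, S100a8 and Ltf of the later class, against 28.3% of all promoters. In Elane they lay at position -85. The RUNX letters were found in 3 (Ctsg, Ltf and S100a9; 16.8% of all) and the TATA letters in 3 (Ctsg, S100a8 and S100a9; 13.6% of all). The C/EBP letters can overlap their own reverse form, as can those of TATA. Such matches are a description of the letters and not of binding, and a window without them says nothing about the factor.

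The 4 primary genes were bright on all 6 arrays, and lowest on the arrays numbered 2 in both genotypes. Mpo had a deposited intensity of 12672.5, 7597 and 18612.5 in WT 1, WT 2 and WT 3, and of 17973.5, 7004 and 20089 in Selp-/- 1, Selp-/- 2 and Selp-/- 3. Elane, neutrophil elastase, had 10456, 3640 and 18349 in WT and 14212, 4230 and 19598 in Selp-/-. Prtn3, proteinase 3, had 4136, 2410 and 5334 in WT and 6739, 2596 and 8497 in Selp-/-. For each of these the WT and Selp-/- arrays numbered 2 were the lowest pair, and the genotypes overlapped. Ctsg, cathepsin G, had 6841.5, 3683.5 and 13657.5 in WT and 10176, 3401.5 and 15767 in Selp-/-. The array medians over all probe sets ran only from 563 (WT 2) to 751 (WT 3).

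The later genes spread further between the same arrays. Ngp had an intensity of 6480, 575 and 12683 in WT and 6072, 925 and 9176 in Selp-/-. Lcn2 had 2772, 505 and 7010 in WT and 2614, 607 and 5714 in Selp-/-. S100a8 had 1914.5, 382 and 5796 in WT and 1628.5, 532 and 4847.5 in Selp-/-. On the arrays numbered 2 these genes thus lay near or below the array median except Ngp in Selp-/- 2, and on those numbered 1 and 3 well above it. S100a9 had 2243.5, 437 and 4957 in WT and 1604, 578.5 and 3529.5 in Selp-/-. Ltf had 1144.5, 398 and 1723.5 in WT and 1094.5, 481 and 1255.5 in Selp-/-. Camp moved least, with 865.5, 518.5 and 776.5 in WT against 806, 628 and 992.5 in Selp-/-. Its WT 3 lay below its WT 1, while its Selp-/- 3 lay above its Selp-/- 1. After normalization 5 of the 60 values of the members lay under a log2 level of 8.79, the mean level a probe set needed to be tested. They were Ltf and S100a8 in both arrays numbered 2 and S100a9 in WT 2.

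**Figure D1:**
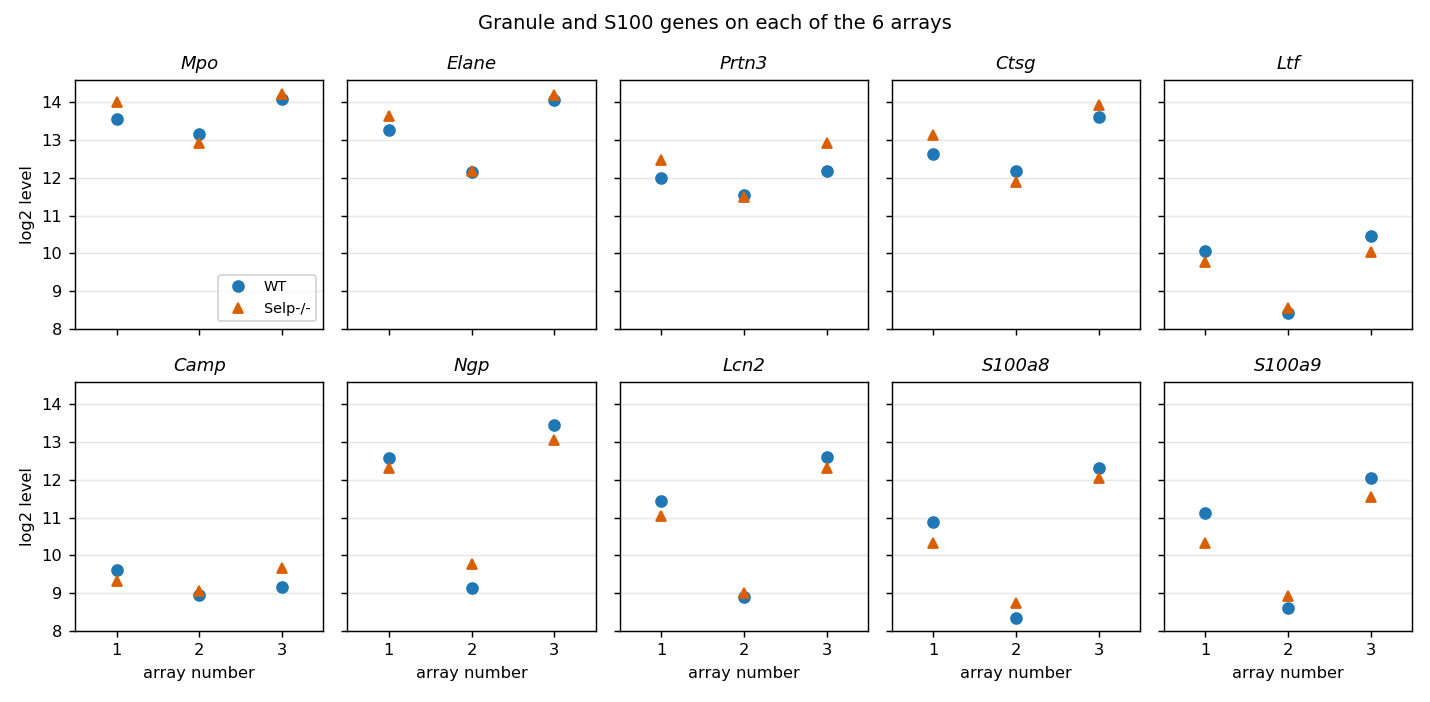
Normalized log2 level (vertical axis) of each of the 10 genes against the array number (horizontal axis), with WT as circles and Selp-/- as triangles, 1 array per point. For every gene both arrays numbered 2 lie below both arrays numbered 1, and for 7 genes both arrays numbered 3 lie above the other 4.

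The order of the arrays was the same for most members. All 10 had both arrays numbered 1 above both numbered 2 in log2 level, which held for 18.7% of all tested probe sets. For 7 members (Mpo, Elane, Ctsg, Ngp, Lcn2, S100a8 and S100a9) number 2 was lowest, number 1 between and number 3 highest in both genotypes, an order found for 4.34% of tested probe sets. Both arrays numbered 3 lay above the other 4 for the same 7, against 20.1% of probe sets, and below them for 0 members, against 25.1%. WT 3 in Prtn3 and Selp-/- 3 in Ltf lay between the arrays numbered 1, while WT 3 in Camp lay below both of them. Across the 6 arrays the log2 levels of the later genes other than Camp correlated at 0.960 to 0.994 (Pearson's r, 10 pairs) and those of the primary genes at 0.910 to 0.977 (6 pairs). Pairs of a primary gene and a later gene other than Camp gave 0.741 to 0.973 (20 pairs), and pairs with Camp 0.585 to 0.742. These values are descriptive, since the 6 arrays fall into 3 numbers that shift all of these genes together.

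With genotype in the model, 9 of the 10 members differed between array numbers at an adjusted p under 0.05 (limma, F test), all but Camp (adjusted p = 0.223). The background was high, since 12.8% of the 17289 tested probe sets passed. The same 9 were higher on the arrays numbered 3 than on the mean of numbers 1 and 2, where 20.8% of all tested probe sets passed, 9.13% of all upward and 11.7% downward. S100a8 rose most, by a log2 difference of 2.60 (SE 0.19), a ratio of 6.08. Lcn2 rose by 2.36 (SE 0.14), Ngp by 2.31 (SE 0.21) and S100a9 by 2.06 (SE 0.22). The primary genes rose less, Elane by 1.32 (SE 0.09), Ctsg by 1.30 (SE 0.16), Mpo by 0.73 (SE 0.13) and Prtn3 by 0.68 (SE 0.16). Ltf rose by 1.05 (SE 0.14), and Camp gave 0.17 (SE 0.16) and did not pass. The adjusted p (limma) of the 9 ran from 0.000217 for Lcn2 to 0.0293 for Prtn3. Without WT 3, Mpo gave an adjusted p of 0.0506, and without Selp-/- 3 Prtn3 gave 0.220. Over all probe sets 1578 were higher and 2025 lower on number 3, which became 3908 and 769 without normalization, where the median of all probe sets shifted by 0.20. Without WT 3 the count fell from 3603 to 1427, and the count between numbers from 2217 to 1036, or to 1288 without WT 2.

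Between number 3 and number 1 alone, a contrast added after the data were seen, 5 of the 10 members were higher on number 3 at an adjusted p under 0.05 (limma). Of all probe sets 13.1% passed, 6.08% upward and 7% downward. The members were S100a8 with a log2 difference of 1.57 (SE 0.22), Lcn2 with 1.22 (SE 0.16), S100a9 with 1.09 (SE 0.25), Ctsg with 0.87 (SE 0.18) and Elane with 0.68 (SE 0.10). Ngp gave 0.81 (SE 0.24, adjusted p = 0.0718) and Camp -0.06 (SE 0.19). Without WT 3, which leaves 1 array on number 3, S100a8 gave 1.47, Lcn2 1.15, S100a9 0.95, Ctsg 0.99 and Elane 0.65. Against number 2 the same contrast gave 9 members, all but Camp, where 17.3% of all probe sets passed, 7.8% upward and 9.48% downward. Ngp was 14.1 times higher on number 3 than on number 2, S100a8 12.4 times, Lcn2 11.3 times, S100a9 8.23 times, Elane 3.89 times and Mpo 2.14 times.

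Few probe sets passed between numbers 1 and 2, and the members were prominent among them. Only 9 of 17289 probe sets (0.0521%) passed an adjusted p of 0.05 (limma), 8 higher (0.0463%) and 1 lower (0.00578%) on number 1, and 3 of the 8 higher ones were members. At an unadjusted p under 0.05 (limma) there were 1376, 813 higher and 563 lower. With 1 array of each genotype per number, a probe set that did not pass may still differ. Ngp was 7.99 times higher on number 1 (log2 difference 3.00, SE 0.24, adjusted p = 0.0236). Lcn2 was 4.87 times higher (2.28, SE 0.16, adjusted p = 0.0213) and Elane 2.42 times (1.28, SE 0.10, adjusted p = 0.0236). Ranked from the most upward of these differences, Ngp was 1, Lcn2 3, S100a8 7 and S100a9 10 among all tested probe sets. Ltf was 24, Elane 32, Ctsg 70, Mpo 91, Prtn3 103 and Camp 366. The most downward difference of any probe set was -2.40. The 7 members other than Ngp, Lcn2 and Elane were also higher in mean on number 1 but did not pass. S100a8 gave 2.06 (SE 0.22, adjusted p = 0.0510), S100a9 1.96 (SE 0.25, adjusted p = 0.0879) and Ltf 1.42 (SE 0.16, adjusted p = 0.0563). Ctsg gave 0.86, Mpo 0.74, Prtn3 0.71 and Camp 0.46, with adjusted p from 0.329 to 0.625.

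The other probe sets called between numbers 1 and 2, picked out with their values in view, were Car1, Ermap, Ank1, Rhd and Nxpe2, all higher on number 1, and a probe set of immunoglobulin lambda genes with several symbols, higher on number 2. Car1 (carbonic anhydrase 1), Ermap, Ank1 (ankyrin of the red cell membrane) and Rhd are known from red cell precursors. Car1 had 17689, 3412 and 746 in WT and 17398, 3454 and 734 in Selp-/-, so that unlike the granule genes it was lowest on number 3. The count rests on single arrays. Without WT 2 it was 0 probe sets and 0 members (limma, lowest adjusted p 0.0756, with 1498 probe sets at an unadjusted p under 0.05), and without Selp-/- 2 it was 5 and 2. Without WT 1, WT 3, Selp-/- 1 and Selp-/- 3 it was 23, 64, 81 and 67 probe sets, with 5, 6, 6 and 6 members. With arrays centred on their medians 24 higher and 0 lower probe sets passed, 6 of them members.

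**Figure D2:**
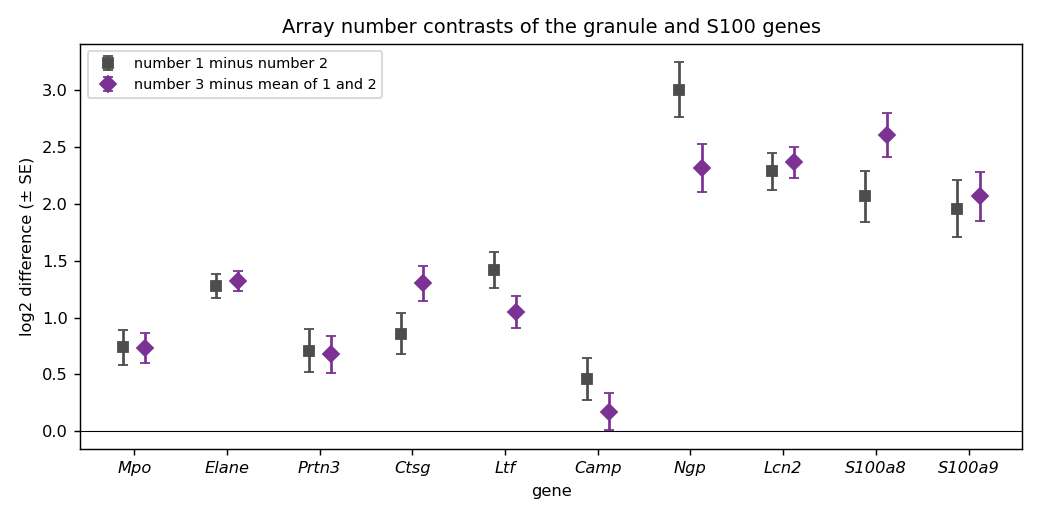
Log2 difference between array numbers (vertical axis, bars 1 SE from limma) for each gene (horizontal axis), as number 1 minus number 2 (squares) and as number 3 minus the mean of numbers 1 and 2 (diamonds). Ngp, Lcn2, S100a8 and S100a9 lie between 1.96 and 3.00 in both contrasts, and the primary genes between 0.68 and 1.32.

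As class means, the later genes lay further apart than the primary ones in both contrasts. On the log2 scale, primary genes lay 1.01 and later genes 1.76 higher on number 3 than on numbers 1 and 2. Between numbers 1 and 2 the class means differed by 0.89 for the primary and 1.86 for the later genes. That gap of -0.97 (primary minus later) had an SD of 0.93 over the 2 genotypes and ran from -1.56 to -0.42 when 1 array was left out, so it was about as large as its spread. Relative to their 6-array mean, the primary genes had a mean of -0.12, -0.71 and 0.51 in WT 1, WT 2 and WT 3, against 0.34, -0.85 and 0.83 in the Selp-/- arrays. The later genes had 0.56, -1.66 and 1.29 in WT, against 0.13, -1.38 and 1.06 in Selp-/-. Both classes were thus lowest on number 2 and highest on number 3 in each genotype. The order did not hold gene by gene. Camp, of the later class, gave smaller differences than any primary gene, and Ltf, at 1.05 on number 3, lay below Elane at 1.32 and Ctsg at 1.30. Without Camp the gap between the classes on number 3 widened from -0.75 to -1.07 (primary minus later), and without S100a8 and S100a9 it narrowed to -0.47. The classes were chosen by name with earlier results known, so the gap carries no test.

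**Figure D3:**
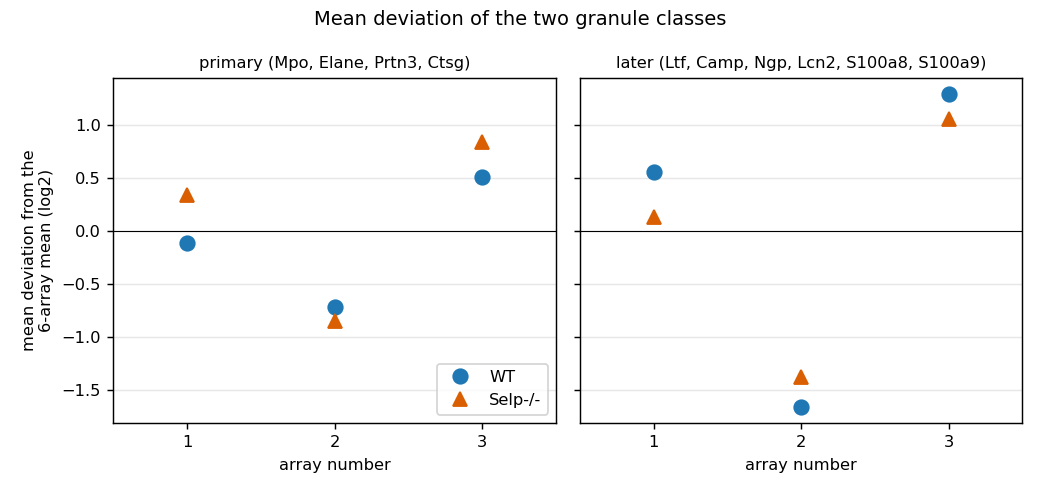
Mean deviation from the 6-array mean (log2, vertical axis) of the 4 primary genes (left) and the 6 later genes (right) against the array number, with WT as circles and Selp-/- as triangles. The later genes reach -1.66 in WT 2 and 1.29 in WT 3, a wider span than the primary genes.

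No member passed the test between the genotypes. Over all 6 arrays limma called 0 of the 17289 probe sets (0%) at an adjusted p of 0.05, with 122 (0.706%) at an unadjusted p under 0.05, none of them a member. Mpo had a log2 level of 13.60 ± 0.46 in WT and 13.72 ± 0.69 in Selp-/- (SD, n = 3). Elane had 13.16 ± 0.96 and 13.34 ± 1.04, Ctsg 12.81 ± 0.73 and 12.99 ± 1.02, and Prtn3 11.91 ± 0.32 and 12.29 ± 0.73. The differences of the primary genes were all above 0, from 0.13 for Mpo (SE 0.37) to 0.37 for Prtn3 (SE 0.37). Those of the later genes ran from -0.34 for S100a9 (SE 0.98) to 0.11 for Camp (SE 0.22), with 1 of 6 above 0. Ngp gave -0.01 (SE 1.27), Lcn2 -0.19 (SE 1.12), S100a8 -0.13 (SE 1.15) and Ltf -0.20 (SE 0.59). The median of all tested probe sets was 0.01. For 0 members did the genotypes not overlap, against 4.21% of all probe sets.

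With the array number as a block the standard errors fell, since most of the spread lay between numbers. They ran from 0.09 for Elane to 0.20 for S100a9. Still 0 probe sets passed an adjusted p of 0.05 (limma), with 630 (3.64%) at an unadjusted p under 0.05. The only member among these was Prtn3 (unadjusted p = 0.0467, adjusted p = 0.983), whose log2 difference of 0.37 had an SE of 0.15. In the arrays numbered 1 and 2 alone its difference was 0.21 (SE 0.29) and that of Ngp 0.19 (SE 1.00).

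Within a number, the 2 classes leaned in opposite directions. Between the arrays numbered 1, all 4 primary genes were higher in Selp-/- (0.37 to 0.51, log2) and all 6 later genes lower (-0.80 to -0.25). Between the arrays numbered 3, all 4 primary genes were again higher (0.13 to 0.72), and 5 of 6 later genes lower, with Camp at 0.50. The arrays numbered 2 went the other way, with 1 of 4 primary genes higher (Elane, 0.03) and 6 of 6 later genes higher (0.11 to 0.63). The gap between the class means (primary minus later, Selp-/- minus WT) was 0.88, -0.42 and 0.56 for numbers 1, 2 and 3, with a mean of 0.34 ± 0.68 (SD, n = 3 pairs). That mean was thus smaller than the spread between the pairs. Over all tested probe sets the share higher in Selp-/- was 50.5%, 51.9% and 50.1%. An interaction of genotype and number could not be tested with 1 array in each cell.

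**Figure D4:**
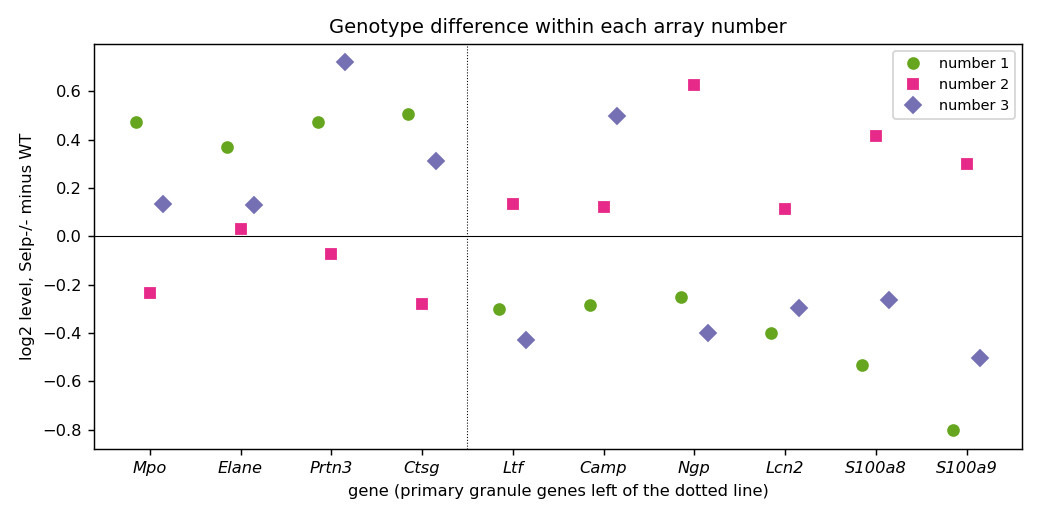
Log2 level of Selp-/- minus WT (vertical axis) for each gene (horizontal axis) within number 1 (circles), number 2 (squares) and number 3 (diamonds), 1 pair of arrays per point. Left of the dotted line the 4 primary genes lie above 0 in numbers 1 and 3, and right of it the later genes lie below 0 there, except Camp in number 3.

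Other granule genes were also higher on number 3. Of 14 further primary granule genes, 12 had a probe set and were tested. On number 3 against numbers 1 and 2, 10 passed upward and 0 downward (limma, adjusted p under 0.05). The 12 had a median log2 difference of 1.07. Over all tested probe sets it was -0.01, and 9.13% passed upward and 11.7% downward. Between numbers 1 and 2, 0 passed, where only 0.0521% of all probe sets did, and the median was -0.03, against 0.80 for the 4 primary members. Cd63, a tetraspanin of granule membranes, had an intensity of 1526, 1335 and 6962 in WT and 1904, 1521 and 6539 in Selp-/-. Ctsc, which activates the granule serine proteases, had 1387.5, 1386 and 5148.5 in WT and 1967, 1560 and 4599 in Selp-/-. Both were nearly level between numbers 1 and 2. Ms4a3, a membrane protein of myeloid progenitors, was the exception in size, with 1939, 701 and 6541 in WT against 3047, 640 and 7177 in Selp-/- (number 1 minus 2, log2 1.78, adjusted p = 0.0510, limma). Prss57, a serine protease of the same granules, had 819, 772 and 1653 in WT and 1204, 847 and 2002 in Selp-/-. The lysozyme gene Lyz2 had 4008, 2443 and 6651 in WT against 4330, 2840 and 15783.5 in Selp-/-, so that only the arrays numbered 3 lay far apart, and it did not pass between genotypes.

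The list of other specific, gelatinase and secretory granule genes gave like counts. Of its 26 genes, 24 had a probe set and 18 were tested. On number 3, 15 passed upward and 0 downward (limma, median log2 difference 1.28), against 9.13% and 11.7% of all tested probe sets. Between numbers 1 and 2, 0 passed (median 0.08, against 2.01 for the 6 later members). The 18 genes ran from -0.23 to 1.28 there, 12 above 0 and 6 below, so the genes named next do not stand for all of them. Chil3, a chitinase-like protein, had an intensity of 345, 265 and 9862 in WT and 353, 218 and 3232 in Selp-/-. Mmp25, a membrane-bound protease of neutrophils, had 495, 446 and 1864 in WT and 484, 456 and 1403 in Selp-/-. Both genes were thus high on number 3 alone, without the intermediate level on number 1 that Ngp and Lcn2 had. Itgb2, the integrin beta 2 chain, and Cyba, a subunit of the phagocyte oxidase, gave log2 differences of 1.72 and 1.42 on number 3 and 0.08 and -0.11 between numbers 1 and 2. The genes Mmp8, Bpi, Olfm4, Arg1, Orm1 and Ceacam10 lay below the level needed for testing.

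The list of other S100 genes gave fewer calls. Of 14 genes fixed for this list, 10 were tested. They include S100pbp, which encodes an S100-binding protein and is not of the S100 family. On number 3, 3 passed upward and 1 downward (limma, median log2 difference 0.11), against 9.13% and 11.7% of all tested probe sets. S100a6, a calcium-binding protein of many cell types, had an intensity of 411, 455 and 3229 in WT and 567, 578 and 2099 in Selp-/-, and S100a11 had 7993, 4852 and 12917 in WT and 7591, 6026 and 10437 in Selp-/-. Between numbers 1 and 2 the 10 genes gave log2 differences from -0.28 to 0.14, and 0 passed.

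Among regulators of neutrophil development and their receptors, 21 of 22 genes were tested. On number 3, 11 passed upward and 3 downward (limma), against 9.13% and 11.7% of all tested probe sets. Cebpa, the factor that starts the granulocyte program, gave a log2 difference of 1.11 on number 3, and Gfi1, a repressor needed for neutrophils, 1.19. The chemokine receptor Cxcr2 gave 3.39 and Csf2rb, the shared receptor chain for GM-CSF, IL-3 and IL-5, 2.82. Between numbers 1 and 2, 0 of the 21 passed, and the largest difference was 0.79, for Cxcr2. In the genotype fit 0 genes passed in any of these 4 lists, and the median log2 differences lay between -0.09 and 0.05.

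Markers of several other cell types moved with number 3 as well, and their part in the granule result was not tested. Over all tested probe sets 9.13% passed upward there and 11.7% downward. All 6 arrays are of bulk RNA, in which more cells of a type and more RNA per cell cannot be told apart. Of 8 tested basophil and mast cell markers 7 passed upward on number 3 (limma), with a summed intensity over the 12 genes with a probe set of 8568 to 11597.5 on the arrays numbered 1 and 2 and of 54118 and 74960.5 on those numbered 3. Mcpt8, the basophil protease, had 755, 762 and 20149 in WT and 979, 830.5 and 16279.5 in Selp-/-. Of 9 tested monocyte markers 6 passed upward, with a summed intensity of 7754 to 9728 on numbers 1 and 2 and of 16597 and 21627.5 on number 3. Of 5 tested eosinophil markers 3 passed upward, Epx among them with 460, 406 and 2223 in WT against 450, 376 and 1672 in Selp-/-. No marker had an intensity of 0, and Cma1, Ms4a2, Il4 and Cd200r3 of the mast cell and basophil list lay below the level needed for testing. Of 7 tested megakaryocyte markers 3 passed upward, of 7 erythroid markers 4 downward and 0 upward, and of 8 B lymphoid markers 1 upward and 3 downward. The list of stem cell markers went down, 11 of 13 passing downward and 0 upward. It also holds Flt3 and Cd48, which mark progenitors, so the count is not of stem cell genes alone. Hlf, a transcription factor of HSC, had 5813.5, 4262 and 667 in WT and 5441.5, 5240.5 and 607.5 in Selp-/-. The arrays numbered 3, labelled HSC as all others, were thus low in most genes of the stem cell list.

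Between numbers 1 and 2 most of these lists lay near 0. The median log2 differences were -0.08 for basophil and mast cell, -0.13 for monocyte, -0.09 for eosinophil, -0.16 for stem cell and -0.34 for B lymphoid markers, with 0 genes called in each (limma). The erythroid list moved with the granule genes there, 2 of its 7 tested genes passing upward, Car1 and Ermap, at a median of 0.57. Its summed intensity was 33898.5 and 37525 on number 1 and 12252 and 14362.5 on number 2. Of the 7 megakaryocyte markers 0 passed, at a median of -0.04, with 3 above 0 and 4 below. Among those above 0 were the platelet chemokines Pf4 and Ppbp, at 1.94 and 1.79. Pf4 had an intensity of 2453, 560 and 6360 in WT and 3322, 888 and 3955 in Selp-/-. The part of these genes in the difference between numbers 1 and 2 was not tested.

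**Figure D5:**
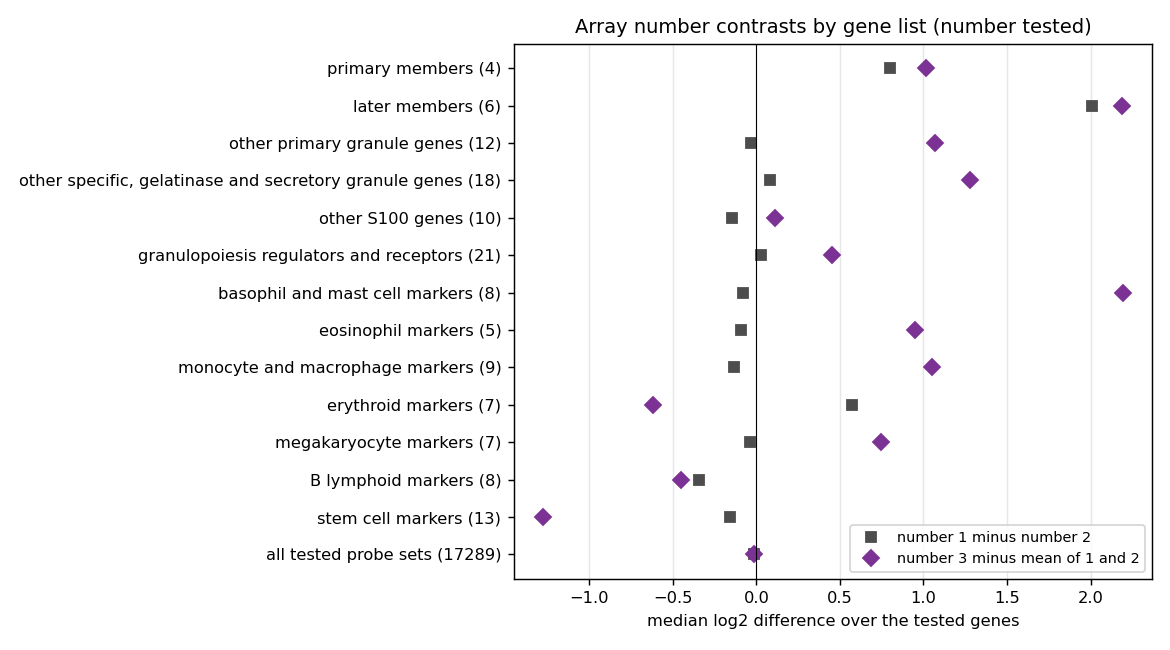
Median log2 difference over the tested genes (horizontal axis) for each gene list (vertical axis, number tested in brackets), as number 1 minus number 2 (squares) and number 3 minus the mean of numbers 1 and 2 (diamonds). The primary and later members lie at 0.80 and 2.01 between numbers 1 and 2, where the other granule lists lie at -0.03 and 0.08.

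The genes most like each class were ranked by Pearson's r over the 6 arrays among 1388 probe sets with a range of at least 1 (log2), as a description. Nearest to the mean of the primary genes were Olr1 (0.998), Chst13 (0.995), Trem3 (0.994), Stom (0.994), Coq10b (0.986) and Alas1 (0.980). Trem3, a receptor of myeloid cells, had an intensity of 1256, 627 and 2776 in WT and 2493, 745 and 4119 in Selp-/-. Alas1, the first enzyme of heme synthesis outside red cells, had 1742, 1155.5 and 3428.5 in WT and 2859, 1216.5 and 4611 in Selp-/-. In both genes Selp-/- lay above WT in numbers 1 and 3. The primary mean has the same lean, so this likeness follows from the ranking and is no separate result. Nearest to the later genes were Tstd3 (0.990), Bak1 (0.980), Pf4 (0.979), Gstm3 (0.974), Dstn (0.966) and Rflnb (0.965).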

How the data were processed

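Biotin-labelled material amplified from total RNA was hybridized to 1-colour arrays, per the labels' protocols. The authors deposited linear probe set intensities. The submitters' processing notes name MAS5 without a version. These values were multiples of 0.5 and their array medians differed, so whether any scaling was applied is unknown. Here they were corrected with normexp (offset 50), taken to log2 and quantile normalized in limma 3.58.1 (R 4.3.3). Probe sets under the 40th percentile of mean log2 level were left out. limma (lmFit, eBayes with trend; two-sided, Benjamini-Hochberg over 17289 probe sets, threshold 0.05) fitted genotype alone, and genotype plus array number for contrasts between numbers, where each number holds 1 array of each genotype. The design kept log2(value + 16) without normalization for scaled values, and it was run as an alternative. The fits were tested on simulated data. Arrays give no depth, and their number limits the precision.

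Names came from the platform annotation, updated through RefSeq identifiers, and 21689 of the 21780 probe sets with 1 symbol matched; 1605 had several symbols and 5430 none. The brightest probe set stood for a listed gene. Same-numbered arrays deviated together from their genotype means (correlations 0.43, 0.53 and 0.81), so the numbers were taken as pairs. The check does not part numbers 1 and 2, since WT 2 with Selp-/- 1 gave 0.51 and WT 1 with Selp-/- 2 gave 0.37. Named genes were the 10 members, in each further list up to 4 genes of smallest p between numbers and up to 2 between genotypes, and the 6 genes most like each class, clone names passed over. Not every gene that rule allows is named, and genes outside it were picked with their values in view. Members and lists were chosen with earlier results of these data known. Alternatives were other background corrections, normalizations and filters, no trend, the replicate block, arrays numbered 1 and 2 alone, and leaving out each array.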

Additional observations from a re-analysis of the deposited data

Results flagged for a closer look

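Camp differed in direction between the genotypes under the same contrast. In WT the array numbered 3 lay below the mean of numbers 1 and 2 by a log2 difference of -0.12, and in Selp-/- above it by 0.46, a gap of 0.58. The difference was not tested, since each genotype has 1 array of each number.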

How the results depend on the processing

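The 10 members were higher on number 1 than on number 2 in all 129 values from 13 alternatives, and higher on number 3 in 128 of 129. The exception was Camp without Selp-/- 3 (range without 1 array each -0.12 to 0.46). The filters and the variance trend cannot change a log2 difference, so the values under those alternatives repeat the main ones. Between numbers 9 members passed, with 8 to 9 when 1 array was left out. Members called between numbers 1 and 2 (main 3) numbered 10 without normalization, 6 with median centring, 1 without the filter and 5 with the stricter filter (0 to 6 without 1 array). The probe sets called there (main 9) numbered 1286, 24, 3 and 15 under the same settings and 5 without a trend (0 to 81 without 1 array). Without normalization 5901 probe sets passed between numbers and 6315 between numbers 3 and 2. The p-values of that setting were of another size. For number 1 against 2, Ngp there had an adjusted p of 7.4e-52 (limma) at a log2 difference of 3.08 (SE 0.19). In the main fit it had 0.0236 at 3.00 (SE 0.24). The counts without normalization, of members and of probe sets, are therefore not comparable with the others and give them no support. Number 3 against 1 gave 3 members without the filter. The ranges without 1 array were 1036 to 2153 probe sets between numbers, 1427 to 3206 for number 3 against 1 and 2, 1005 to 2367 against 1, 968 to 3076 against 2, and 3 to 6 members against 1. Without normalization the median of all probe sets shifted by 0.22 between numbers 1 and 2 and by 0.11 between genotypes. The calls between numbers then split into 4878 higher and 1023 lower on number 3, against 1056 and 1161, those of number 3 against 1 into 1629 and 854, against 1052 and 1211, and those against 2 into 5866 and 449, against 1348 and 1639 (1603 and 1054 with median centring).

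The replicate block called 0 probe sets between genotypes, as did every alternative except the arrays numbered 1 and 2 alone, which called 4; it changed no call of a member. Over 149 member values from 15 alternatives 0 passed. The difference of Prtn3 stayed above 0 in each, and those of the other 9 members changed sign in at least 1. The filters, the trend and the replicate block leave the differences themselves as in the main fit. Ngp gave 0.037 without normalization and 0.19 in numbers 1 and 2 alone, where Camp gave -0.083. Without 1 array the genotype differences ran over 0.062 to 0.77 for Prtn3, -0.12 to 0.52 for Mpo, -0.32 to 0.75 for Elane, -0.29 to 0.72 for Ctsg, -0.82 to 0.25 for Ltf, -0.042 to 0.30 for Camp, -1.31 to 0.98 for Ngp, -1.24 to 0.70 for Lcn2, -1.22 to 0.78 for S100a8 and -1.34 to 0.40 for S100a9, since a missing array leaves its number unbalanced. The gap between the classes on number 3 was -1.14 with medians, -0.47 without S100a8 and S100a9, -1.07 without Camp, and -1.05 to -0.50 without 1 array. The causes of these shifts were not tested. The offset compresses dim values, such as the later genes on number 2, but the background correction as a whole widened their differences. Number 1 minus number 2 was smaller without it for each later gene. Ngp then gave 2.80, Lcn2 2.05 and S100a8 1.77, against 3.00, 2.28 and 2.06 in the main fit.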
